A study of Mus musculus with 4 samples.

Results

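The 408 genes described here had 2 or more N6-methyladenosine (m6A) peaks in control mouse islets and none in islets that lack Wtap in beta cells. They were chosen by gene identifier from the authors' deposited peak lists, as every gene with at least 2 rows in the control list and no row in the knockout list. They held 922 of the 10964 control peaks, and they were 408 of the 6250 control-peak genes (6.53%, 95% interval 5.93 to 7.17). The knockout list held 9411 peaks in 5378 genes, and the lists together named 7491 genes. Presence and absence of peaks chose the genes, so the counts of genes, the fold and the q of their peaks are given as descriptions and were not tested.

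Wtap-βKO islets, which lack Wtap in beta cells, came from 19 mice and control islets from 10 mice homozygous for the floxed Wtap allele (Wtapflox/flox), all 7 weeks old and on normal chow. RNA of each genotype was pooled to 2 µg in total and cut to about 100 nt. Antibody-bound RNA (IP) and unenriched RNA (input) were sequenced as 1 library each per genotype, so there was no replicate and no test between genotypes could be made. All intervals are exact Clopper-Pearson 95% intervals that cover counting error over genes or peaks only, not variation between animals or libraries. Intervals over peaks take each peak as independent. Peaks of the same gene are not independent, so those intervals may be too narrow. The driver of the Cre recombinase and the read depth are not given in the sources used here. Other islet cells are not targeted by a deletion in beta cells and would keep Wtap. Because whole islets were used, fewer cells of a type, less RNA per cell and less methylation cannot be told apart behind a missing peak.

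m6A is placed on nascent mRNA by a writer complex in which METTL3 is the catalytic subunit, METTL14 holds the RNA, and WTAP anchors the pair in nuclear speckles. The mark is known to lie mainly in long internal exons and around stop codons, and reader proteins of the YTH and IGF2BP families bind it and alter the decay, translation or stability of the transcript. In beta cells, writers and readers of m6A are known to bear on insulin secretion and on maturity. The comparison addresses which islet transcripts carry m6A that depends on WTAP.

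Wtap itself was checked in both lists. The knockout list held 1 Wtap peak (fold 3.37, −log10 q 6.38) and the control list held 2 (folds 3.16 and 23.2), so Wtap is not among the 408 genes, and a peak list gives no transcript level that could check the deletion. Fold is the peak caller's ratio of IP over input within the peak, and q is its p-value adjusted for multiple testing. Of 12 beta cell markers, 11 had a peak in the knockout list and 10 in the control list, with none among the 408 genes. Among markers of other cell types, the 408 genes held Bhlha15 of 9 acinar markers and 1 of 7 ductal markers, and none of the 9 alpha, 6 delta and PP, 11 endothelial, 11 stromal, 12 immune or 7 Schwann and neuronal markers. A marker without a control peak could not be among the 408 genes. Control peaks were listed for 4 alpha, 2 delta and PP, 9 endothelial, 2 stromal, 2 immune and 1 of the Schwann and neuronal markers. The absence of such markers is therefore no measure of these cell types.

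Most of the 922 peaks lie away from the start of their gene, and a genome sequence to print them from was not used here. The 300-base windows of RefSeq around gene starts (GRCm38.p6, 250 bases before the start and 50 from it), available for 296 of the 408 genes, overlapped 9 of the peaks on the same strand, and 5 peaks covered at least 40 bases of a window. Those 5 windows are shown because they are the stretches where the sequence under a peak could be read. Each is written 5′ to 3′ on the strand of the gene, with the bases covered by the control peak in capitals.
Gpc4: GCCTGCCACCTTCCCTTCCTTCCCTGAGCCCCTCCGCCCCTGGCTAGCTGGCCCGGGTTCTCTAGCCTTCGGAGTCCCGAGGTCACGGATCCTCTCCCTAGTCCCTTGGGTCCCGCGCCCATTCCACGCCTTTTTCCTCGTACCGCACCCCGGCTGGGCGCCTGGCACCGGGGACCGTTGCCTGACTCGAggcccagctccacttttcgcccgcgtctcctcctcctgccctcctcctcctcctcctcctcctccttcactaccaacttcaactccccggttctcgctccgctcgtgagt
Angel2: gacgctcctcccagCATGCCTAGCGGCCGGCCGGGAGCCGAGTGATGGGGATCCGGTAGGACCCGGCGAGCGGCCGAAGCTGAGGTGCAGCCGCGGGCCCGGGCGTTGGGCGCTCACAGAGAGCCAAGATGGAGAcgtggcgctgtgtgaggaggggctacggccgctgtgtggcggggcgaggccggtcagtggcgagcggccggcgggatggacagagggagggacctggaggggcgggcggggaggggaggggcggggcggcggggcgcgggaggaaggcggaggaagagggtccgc
Zc3h15: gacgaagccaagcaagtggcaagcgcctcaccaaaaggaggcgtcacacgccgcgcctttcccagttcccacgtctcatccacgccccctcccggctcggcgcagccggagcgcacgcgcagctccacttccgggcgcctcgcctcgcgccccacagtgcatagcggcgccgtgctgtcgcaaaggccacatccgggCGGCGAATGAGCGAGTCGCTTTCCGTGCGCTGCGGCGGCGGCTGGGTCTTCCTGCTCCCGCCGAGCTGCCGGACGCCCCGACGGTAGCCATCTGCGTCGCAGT
Kcnmb2: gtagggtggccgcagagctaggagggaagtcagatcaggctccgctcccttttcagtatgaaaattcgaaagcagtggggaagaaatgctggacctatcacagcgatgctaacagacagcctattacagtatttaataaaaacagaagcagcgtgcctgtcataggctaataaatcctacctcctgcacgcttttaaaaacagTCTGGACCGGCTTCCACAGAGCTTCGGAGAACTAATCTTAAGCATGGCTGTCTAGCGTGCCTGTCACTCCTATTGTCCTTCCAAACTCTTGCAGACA
Cdk2ap2: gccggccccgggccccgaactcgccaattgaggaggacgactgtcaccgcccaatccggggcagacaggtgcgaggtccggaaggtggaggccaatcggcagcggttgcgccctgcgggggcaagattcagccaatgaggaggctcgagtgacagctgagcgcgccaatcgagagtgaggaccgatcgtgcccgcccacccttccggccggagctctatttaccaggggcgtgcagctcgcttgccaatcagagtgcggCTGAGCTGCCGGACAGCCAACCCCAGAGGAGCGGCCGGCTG

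The Gpc4 window lies at chrX:52164874-52165173 on the minus strand, and the covered part ends 61 bases before the RefSeq start, so the peak lies upstream of that start (fold 1.85, −log10 q 14.4). Gpc4 encodes a glypican, a cell-surface heparan sulfate proteoglycan. The Angel2 window (chr1:190928572-190928871, plus strand) is likewise covered from 236 to 116 bases before the start. Zc3h15 (chr2:83644328-83644627, plus strand), Kcnmb2 (chr3:31902453-31902752, plus strand) and Cdk2ap2 (chr19:4097101-4097400, plus strand) are covered up to the last base of the window. Kcnmb2 encodes an auxiliary subunit of the calcium- and voltage-gated BK potassium channel. The 4 letters GGAC, the core of the known m6A consensus, occurred 1 time on the transcript strand within each covered stretch, and the other strand was not searched. The same bases of all 32851 windows in the table held GGAC in 48.6% for Gpc4, 34.8% for Angel2, 32.7% for Zc3h15, 31.3% for Kcnmb2 and 15.8% for Cdk2ap2. The match is a description and shows no methylated base. The other 4 overlapping peaks, of Scand1, Pdzd4, Polr3f and Map2k3, covered 11 to 21 bases of a window with no GGAC there.

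At higher numbers of control peaks, a smaller part of the genes had none in the knockout list. Of the 2516 control genes with 2 or more peaks, 408 had no knockout peak (16.2%, 14.8 to 17.7), where 33.8% of all control-peak genes had none. Of genes with 2 control peaks, 334 of 1440 had no knockout peak (23.2%, 21 to 25.5). The count was 49 of 565 for 3 peaks (8.67%, 6.48 to 11.3) and 20 of 262 for 4 peaks (7.63%, 4.72 to 11.5). It was 3 of 112 for 5 peaks and 2 of 66 for 6 peaks. None of 71 genes with 7 or more control peaks lacked a knockout peak (0%, 0 to 5.06), and taken as 3 counts of the total a count of 0 allows a share of up to 4.23%. Genes with 1 control peak, which the rule leaves out, had no knockout peak in 1705 of 3734 cases (45.7%, 44.1 to 47.3). In the reverse direction, 140 of 2098 knockout genes with 2 or more peaks had no control peak (6.67%, 5.64 to 7.83), and these held 306 peaks. The rule itself fixes both counts, and the lists differ in length, so the 16.2% and the 6.67% are set side by side without a test.

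**Figure D1:**
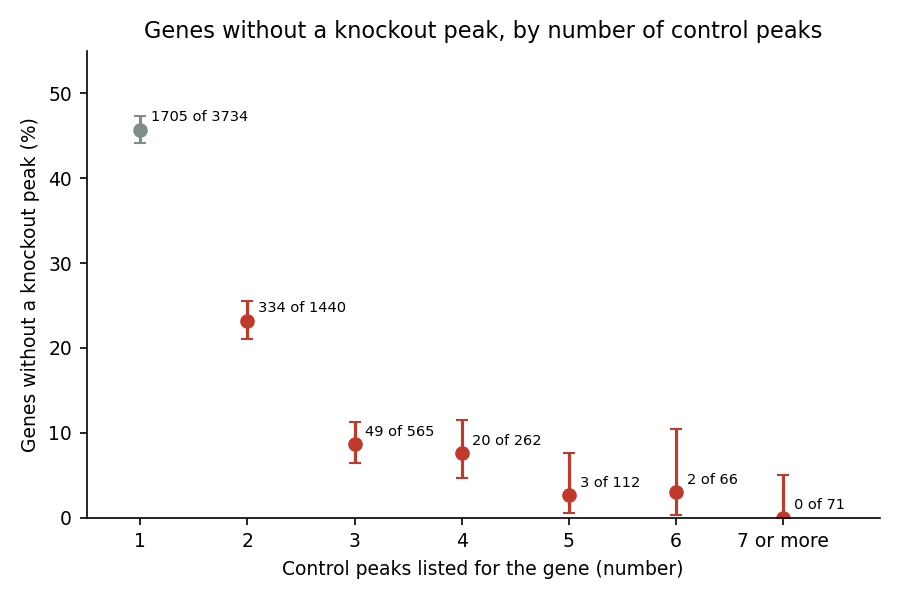
Percent of genes, among those with a control peak, that had no knockout peak (y axis) by the number of control peaks listed for the gene (x axis). Points are shares, bars are exact 95% intervals that cover counting error only, red marks the numbers of peaks that the 408 genes have or could have, and grey marks genes with 1 control peak; the share is 23.2% at 2 peaks and 4.89% over genes with 4 or more.

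The 922 peaks had a higher fold and a weaker q than control peaks of multi-peak genes that also had a knockout peak. Median fold was 5.27 (quartiles 3.34 and 9.74), against 3.67 in the 6308 peaks of those 2108 genes. Median −log10 q was 3.33 (quartiles 2.59 and 4.81), against 5.65. The folds ranged from 1.42 to 43.2 and the −log10 q from 1.41 to 34. Of the 922 peaks, 47 (5.1%) were among the 20% of all control peaks with the strongest q, and 324 (35.1%) were among the 20% with the weakest. At a q of 0.001 or less there were 537 of the 922 peaks (58.2%, 55 to 61.4), against 80.3% of peaks in multi-peak genes with a knockout peak. By gene, 151 of the 408 had every peak at that q, 328 had at least 1 and 80 had none.

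When the 2516 multi-peak control genes were ordered by their best q and divided into 5 equal parts, the share without a knockout peak was 39.3% (198 of 504) in the part with the weakest best q. It was 22.9%, 11.5% and 5.37% in the next parts and 1.99% (10 of 503) in the part with the strongest best q, where −log10 q was 19 or more.

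High folds came mostly in repeated values. Folds of 8 or more made up 279 of the 922 peaks (30.3%, 27.3 to 33.3), against 11.7% in multi-peak genes with a knockout peak. Of these 279, 234 (83.9%, 79 to 88) were a whole multiple of 1.05 within 0.06, against 72.8% of the corresponding peaks of genes with a knockout peak. These 234 peaks had 91 distinct pairs of fold and q as deposited, and for 206 of them (88%) another control peak had the identical pair, against 350 of the other 688 peaks (50.9%). The pair of fold 15.8 and −log10 q 2.61 occurred in 17 of the 922 peaks and in 74 control peaks in all, and that of fold 20 and −log10 q 3.65 in 16 and 43. At least 1 such peak was found in 181 of the 408 genes, and 36 genes had no other kind. The part of low read counts in these repeated values was not tested.

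**Figure D2:**
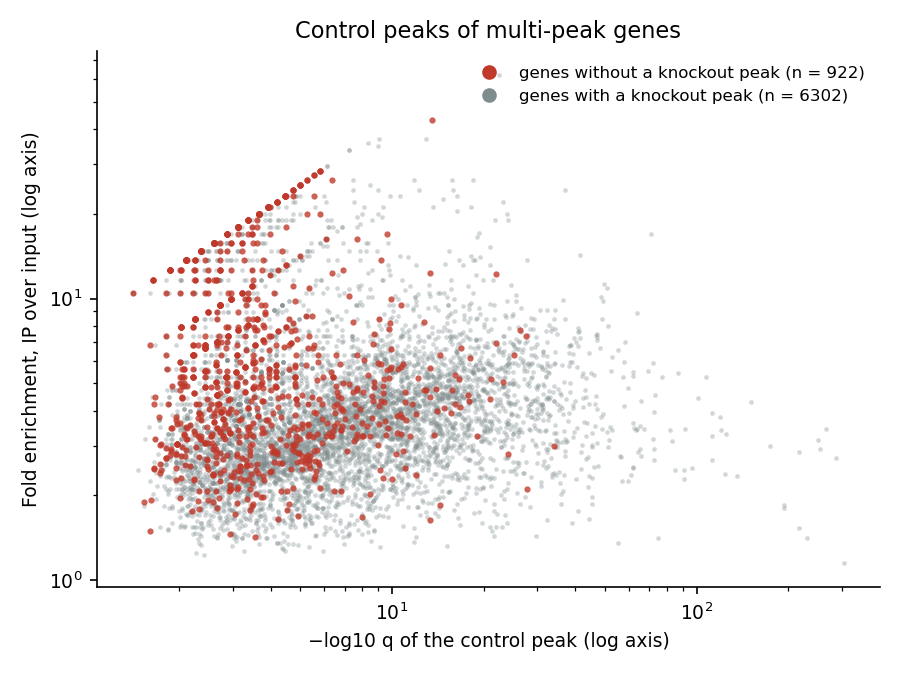
Control peaks by −log10 q (x axis, log scale) and fold of IP over input (y axis, log scale), red for the 922 peaks of multi-peak genes without a knockout peak and grey for 6302 peaks of multi-peak genes with a knockout peak (peaks with a q of 0 are not drawn). Red points gather at low −log10 q, and the diagonal rows at the upper left are the repeated pairs of fold and q.

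Bace2 had the strongest q. Bace2 encodes a protease of the beta-secretase family that sheds collectrin (Tmem27) from beta cells. Its peaks at chr16:97436699-97438798 had folds of 2.99 and 7.33 and −log10 q of 34 and 27.5, at 93.2% and 94.9% of the way along the gene. Mfn2, the GTPase of outer-membrane fusion in mitochondria, also had both peaks strong, with folds of 3.27 and 5.17 and −log10 q of 13.7 and 21.2, at 774 and 1535 bp from the gene end. In other genes of this kind 1 peak carried the q. Dagla, the lipase that makes an endocannabinoid, had −log10 q of 25.1 at 2633 bp from the gene end and 3.41 at 194 bp. Knop1 had −log10 q of 1.95, 26.3 and 5.34 at folds of 3.79, 7.76 and 10.9.

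The rest of the 10 genes with the strongest q and 2 or 3 peaks act in membranes, transcription and nutrient sensing. Retreg2, of a family of receptors for autophagy of the endoplasmic reticulum, had folds of 3.69 and 6.93 and −log10 q of 3.15 and 21.9. Preb, the exchange factor that starts COPII vesicle budding, had 3 peaks with −log10 q of 4.55, 4.72 and 19. Gtf3c2, a subunit of the RNA polymerase III factor TFIIIC, had 6.33 and 18.1 on the same scale. Flcn, the folliculin tumour suppressor of nutrient signalling, had 17.9 and 4.34, both within 1087 bp of the gene end. Zdhhc3, a palmitoyltransferase of the Golgi, had a peak of fold 4.53 and −log10 q 17.7 beside one of fold 23.2 and −log10 q 4.45. In 5 of the 10 genes the peak with the highest fold was not the one with the lowest q.

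The highest fold was in Rusc2, a regulator of vesicle trafficking, with 43.2 (−log10 q 13.5) and 15.8 (−log10 q 3.51) at chr4:43415794-43416691. No other of the 922 peaks reached a fold of 30. The next were 28.4 in Ubqln4, a shuttle factor of the proteasome, in Tenm2, a teneurin of synaptic adhesion, and in Amotl2, an angiomotin that binds YAP. All 3 of those peaks had the same −log10 q of 5.82. Thsd4 and Hirip3 had 27.4 at −log10 q 5.54, and Nek9 and Vps37b had 26.3 at 5.27. Vps37b is a subunit of ESCRT-I, and its other peak had a fold of 5.37 and −log10 q 8.36, 285 bp from the gene end. Lrfn1, a synaptic adhesion protein, had a fold of 26.3 at −log10 q 6.37 and 5.62 at 1.82.

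The peaks of a gene lay close together. From the first to the last peak the median distance was 1400 bp (quartiles 690 and 8511), against 5950 bp in multi-peak genes with a knockout peak. All peaks lay within 1000 bp in 164 of 408 genes (40.2%, 35.4 to 45.1), against 14.9%, and within 2000 bp in 58.8%, against 30.2%. These distances are between rows as deposited. In 15 of the 408 genes all rows overlapped into 1 region, and 75 had 1 region when rows within 200 bp were merged. The shares were not taken again on merged regions, and the part of split rows was not tested. Since genes with more peaks spread further, genes with exactly 2 control peaks were set side by side. Both peaks lay within 1000 bp in 157 of 334 without a knockout peak (47%, 41.6 to 52.5) and in 298 of 1106 with a knockout peak (26.9%, 24.3 to 29.7). The median RefSeq length of these genes was 30761 bp without a knockout peak and 30974 bp with one.

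The same shares were taken within bands of q. In 2-peak genes whose best −log10 q was under 4, both peaks lay within 1000 bp in 51.7% without a knockout peak (43.3 to 60) and 47.8% with one (40.8 to 54.9), intervals that overlap. From 4 to under 7 the shares were 43.4% and 34.5%. At 7 or more they were 43.2% (32 of 74, 31.8 to 55.3) and 17.6% (114 of 649, 14.7 to 20.7), intervals that do not overlap. That band has no upper limit, and q was not matched within it. Among all multi-peak control genes, 11.5% had no knockout peak at a best −log10 q of 7.42 to 11.3. At 19 or more the share was 1.99%. Genes with and without a knockout peak may thus differ in q within that band, and the distances at equal q were not tested. These bands of q were chosen after the values had been seen.

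The peaks lay toward the 3′ end. Of the 851 peaks of the 375 genes matched to RefSeq, 363 lay within 2000 bp of the gene end (42.7%, 39.3 to 46.1), against 25.3% (24.2 to 26.4) in multi-peak genes with a knockout peak. The last 10% of the gene held 49.2%, against 39.3%, and each other 10% held 2.94% to 12%. Within 300 bp of the gene start there were 1.41%, against 1.37%. Every peak lay within 2000 bp of the gene end in 105 of the 375 genes (28%, 23.5 to 32.8), against 11.5% of genes with a knockout peak. At least 1 peak lay there in 226 genes (60.3%, 55.1 to 65.3), against 53.2% (50.9 to 55.4), a smaller difference. Among 2-peak genes every peak lay there in 31.4% (26.2 to 36.9) without a knockout peak and 19.4% (17 to 21.9) with one. In 2-peak genes whose best −log10 q was 7 or more, at least 1 peak lay there in 61.8% without a knockout peak (49.2 to 73.3) and 56.3% with one (52.2 to 60.3), intervals that overlap. Under 4 the shares were 56.9% and 47.6%, and from 4 to under 7 they were 66.7% (56.8 to 75.6) and 50% (43.4 to 56.6). A peak in the first 10% together with a peak in the last 10% of the gene was found in 25 genes (6.67%, 4.36 to 9.68), against 8.15%. RefSeq gene spans take no account of introns or of the transcript used, so stop codons and untranslated regions were not placed.

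**Figure D3:**
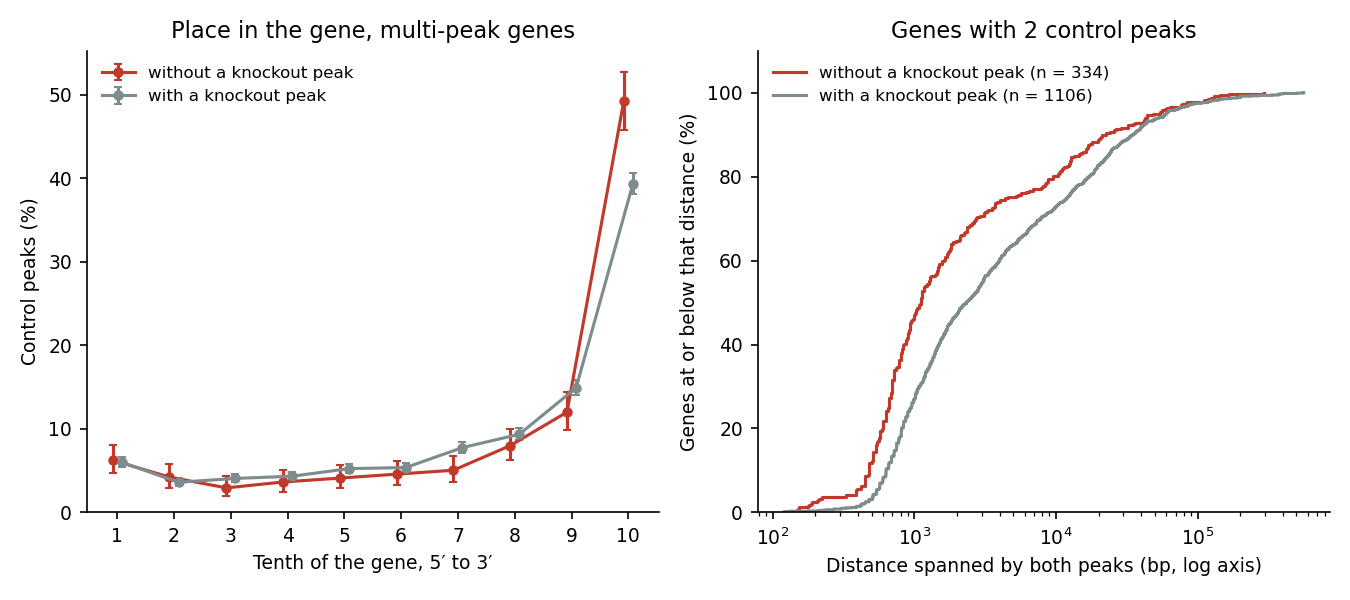
Left, control peaks by the stretch of 10% of the RefSeq gene that holds the peak centre (x axis, 5′ to 3′) as percent of peaks (y axis), for multi-peak genes without (red) and with (grey) a knockout peak, with exact 95% intervals; the last stretch holds 49.2% and 39.3%. Right, for genes with 2 control peaks, the percent of genes (y axis) whose peaks together span no more than the distance on the x axis (bp, log scale); the red curve lies above the grey one around 1000 bp, at 47% and 26.9%.

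Peaks over exon junctions were few. Of the 922 peaks, 53 spanned more than 1 exon (5.75%, 4.34 to 7.45), in 48 genes, against 13.1% (12.3 to 14) in multi-peak genes with a knockout peak and 11.7% of all control peaks. In the 306 peaks of multi-peak knockout genes without a control peak the share was 25.5% (20.7 to 30.8). Median peak length was 180 nt, against 241 nt in multi-peak genes with a knockout peak. The lowest q among junction peaks was in Hivep3, a zinc finger transcription factor (fold 4.1, −log10 q 14.8, at 34.3% of the gene). Next came H2afy, a macroH2A histone variant gene whose 2 peaks both spanned a junction (folds 3.74 and 4.21, −log10 q 2.79 and 11.6). Junction peaks of Lrfn4 and Sptbn4 had −log10 q of 8.29 and 7.46, and that of Rnf34, a RING ubiquitin ligase, 6.82.

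Of the 408 genes, 25 had 4 or more control peaks. Some rows of a gene overlap. Merging them left 20 of the 25 with 4 or more regions. Prob1 had 6 rows and 3 regions, and its rows came in pairs of equal fold (6.32, 20 and 5.62). Ccdc166, Usp27x, Fastkd5 and the unnamed ENSMUSG00000073590 had 4 rows and 2 regions each. By summed peak length the longest were Lrfn4 (1849 nt), Col6a6 (1712 nt), Hspa12a of the heat shock protein 70 superfamily (1466 nt), Kcnj12 (1436 nt) and Bhlha15 (1345 nt). Over all 408 genes, 22 had overlapping rows, 15 of them came down to 1 region, and the 922 rows made 894 regions.

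Col6a6, a chain of the basement-membrane-associated collagen VI, had 6 peaks over chr9:105689277-105784133 with folds of 2.38 to 9.48 and −log10 q of 3.41 to 10.4. Of these, 4 lay between 31.9% and 38.8% of the gene, 1 at 93.1% and 1 centred 36 bp beyond its RefSeq end. Flrt1, a leucine-rich-repeat transmembrane protein of axon guidance, had 5 peaks within 3946 bp (chr19:7093269-7097214), with folds of 2.81 to 20 and −log10 q of 2.35 to 9.36. Amigo3, an adhesion protein with leucine-rich repeats, had 4 peaks within 1586 bp with folds of 3.26 to 4.91. The nearest same-strand knockout peak to Amigo3 lay 2034 bp away and is listed for Gmppb, its neighbour.

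Coro2b, a coronin that binds actin, had 5 peaks, 3 of them within 1645 bp of the gene end, with −log10 q of 2.18 to 10.9. Sptbn4, the spectrin of axon initial segments, had 4 peaks with folds of 2.13 to 5.05 and a best −log10 q of 23.2. Lrp3, of the LDL receptor family, had 4 peaks within 2816 bp (chr7:35201447-35204262) with folds of 3.81 to 12.2 and a best −log10 q of 21.9. Slc16a12, of the monocarboxylate transporter family, had 4 peaks with folds of 2.07 to 4.4, and each had a −log10 q of 6.43 or more. Slc16a12 was thus the gene of this size whose weakest peak was strongest. Hcn4, the pacemaker channel known from the sinoatrial node, had folds of 3.95, 6.67, 16.3 and 20, the last centred 135 bp from the gene end. Fhdc1, a formin, had folds of 2.7 to 4.04, and Tlnrd1, an actin-bundling protein, 4.65 to 7.72.

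Nsd2, a methyltransferase of histone H3, had folds of 2.73, 16.9, 5.06 and 10 with −log10 q of 2.65 to 5.21. Fbrsl1 had 3 peaks near 20% of the gene and 1 at 98.4%, with folds of 2.35 to 25.3. Bahcc1, a chromatin reader, had folds of 7.02 to 20 and no −log10 q over 3.74. Dclre1a, a nuclease of crosslink repair, had all 4 peaks in the first 17.5% of the gene with folds of 8.43 to 16.9. Ado, a thiol dioxygenase, had folds of 3.48 to 21.1 and Tecpr2, of autophagy, 3.06 to 24.2. Cdv3 had −log10 q of 2.65 to 3.18 and Rhbdd2 of 1.73 to 2.65, so that no peak of Rhbdd2 reached a q of 0.001. The unnamed gene ENSMUSG00000097119 on chromosome 17 had 5 peaks with folds of 3.03 to 15.8 and a best −log10 q of 3.07.

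**Figure D4:**
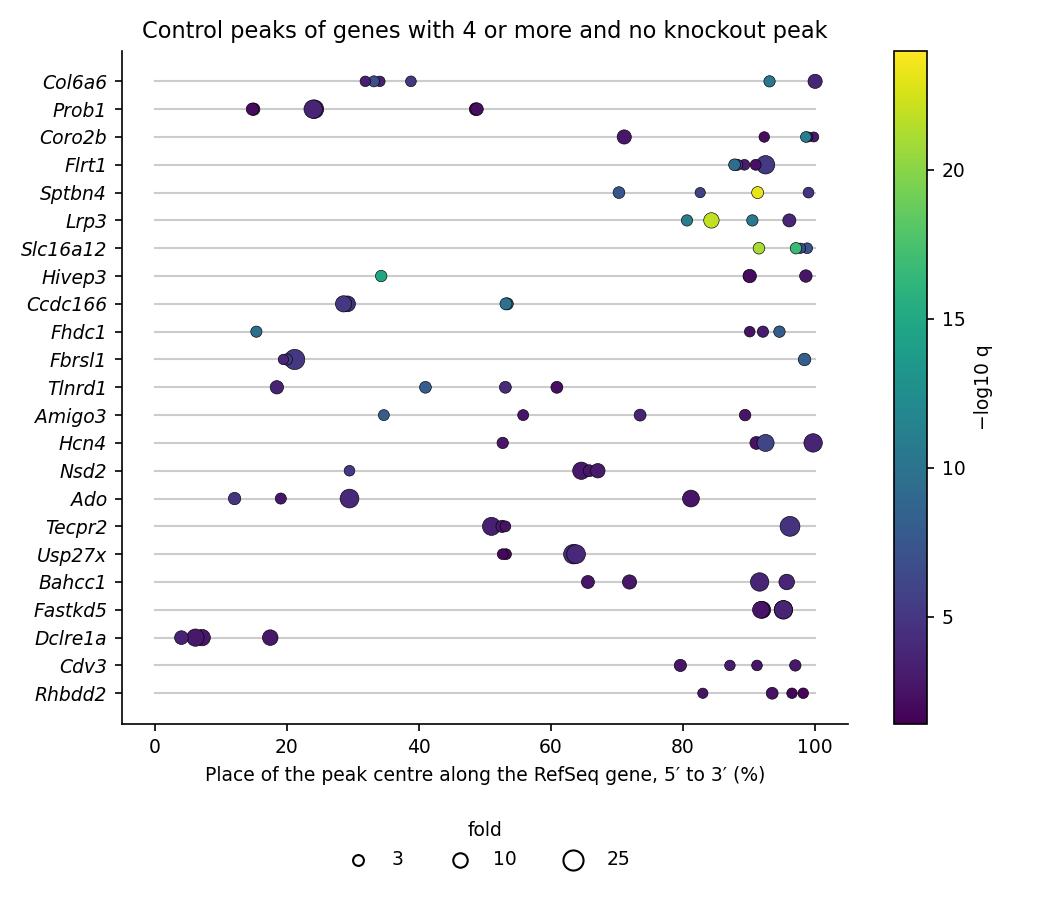
Place of each control peak along its RefSeq gene (x axis, percent of the way 5′ to 3′) for the 23 genes with 4 or more control peaks, no knockout peak and a RefSeq match, 1 gene a line. Point size gives the fold and colour the −log10 q; peaks of Slc16a12 and Flrt1 gather in the last 20% of the gene, those of Dclre1a in the first 20%, and overlapping rows of Prob1, Ccdc166, Usp27x and Fastkd5 fall on the same points.

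By function, the 408 genes were read against 27 gene lists that take in 134 of them, and each list against the 16.2% of all multi-peak control genes that lack a knockout peak. Lists were matched by gene symbol, so a list can hold genes that lack the named function. The interval of a list included 16.2% for most lists with 10 or more such genes. The intervals of chromatin regulators (4 of 86, 4.65%, 1.28 to 11.5), insulin secretion and beta cell function (0 of 26, up to 13.2%), the unfolded protein response (0 of 22, up to 15.4%) and heterotrimeric G proteins with cAMP signalling (0 of 28, up to 12.3%) lay below it. No list lay above it, and the lists were written with earlier results of these data known. The lists were not matched for number of control peaks or for q, and the share without a knockout peak fell with both. Shares of control-peak genes were also taken at a q of 0.001 or less in both lists. They were 2.59% for chromatin regulators, 2.5% for insulin secretion (0.0633 to 13.2), and 0% for the unfolded protein response and for G proteins. The median of such shares over the 27 lists was 3.7%. Their denominator includes genes with 1 control peak, so they cannot be set against the 16.2%. For the counts of 0 among multi-peak genes, 3 counts of the total allow a share of up to 11.5% for insulin secretion. The same figure is 13.6% for the unfolded protein response and 10.7% for G proteins.

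Genes of excitability, adhesion, receptors and developmental signalling had intervals that include 16.2%. Of 29 ion channel genes with 2 or more control peaks, 8 had no knockout peak (27.6%, 12.7 to 47.2). Kcnj12, an inward-rectifier potassium channel, had folds of 6.9 and 16.9 and −log10 q of 8.66 and 9.61 at chr11:61069517-61071011. Orai3, a store-operated calcium channel, had folds of 3.54 and 2.55, and Chrnb2, a nicotinic receptor subunit, 5.27 and 3.31. Of 23 genes of axon guidance and synaptic adhesion there were 5 (21.7%, 7.46 to 43.7). Lrfn4 had 3 peaks with −log10 q of 2.3, 8.29 and 12.9, and Sema4c, a semaphorin, had folds of 20 and 5.69. Of 17 cadherins and protocadherins none was among the 408 genes (interval up to 19.5%, and up to 17.6% as 3 counts of the total). Col6a6 was the 1 of 6 extracellular matrix genes.

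The list of G protein-coupled receptors had 6 of 28 (21.4%, 8.3 to 41), of which Gpr89 is listed by its name alone. Among the 6 were Adora1, an adenosine receptor with 3 peaks (−log10 q 2.44, 2.22 and 12.7) and Adgrl3, a latrophilin with folds of 5.53 and 15.8. The Wnt receptors Fzd3 (folds 3.97 and 3.56) and Fzd8 (folds 6.32 and 15.8) count both there and in the list of Notch, Wnt, Hedgehog, TGF-beta and Hippo signalling, which had 7 of 26 (26.9%, 11.6 to 47.8). Tead1, the DNA-binding partner of YAP, had folds of 2.07 and 2.55, the lowest in that list. Of 27 growth factor genes there were 2, Igf2bp2, which binds RNA and is listed by its name, and Pdgfrl. Of 29 immune and cytokine genes there were 4, Oasl2, Tnfrsf21, Tnfaip3 and Socs2. Tnfaip3, the ubiquitin-editing brake on NF-kB, had folds of 7.9 and 3.47, and the 2 rows of Socs2 overlap and make 1 region.

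Transcription factors, chromatin and RNA-binding genes lay near or below the background share. Zinc finger transcription factors had 28 of 177 (15.8%, 10.8 to 22), among them Zfp324 with 3 peaks of −log10 q 3.22, 9.61 and 13.3. Genes described with a KRAB domain superfamily, the repressor domain of many zinc finger proteins, had 18 of 83 (21.7%, 13.4 to 32.1). Reads could be shared between such closely related genes, and how the authors counted them is not given in the sources used here. The list of homeobox, bHLH and other developmental factors had 8 of 56 (14.3%, 6.38 to 26.2), of which Hif1an is listed by its name alone. Bhlhe40, a repressor of the circadian loop, had −log10 q of 2.56 and 14, and it was the 1 of 17 immediate early and circadian genes. Six5, of the homeobox family, had folds of 4.4 and 2.98. Among the 4 chromatin regulators, Phf8, a histone demethylase, had folds of 10 and 4.48 and Smarcd3, a BAF complex subunit, 3.47 and 19, and the others were Nsd2 and Phf6.

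The m6A machinery had 2 of 12 genes, and both are readers. Ythdf1, a cytoplasmic reader tied to translation and decay, had 3 peaks with folds of 3.35, 3.83 and 7.02 and −log10 q of 2.72, 7.63 and 2.74. Igf2bp2, a reader that stabilises transcripts, had folds of 11.6, on the repeated step, and 8.95, off it, with −log10 q of 2.65 and 2.49. At a q of 0.001 or less in both lists neither gene remained. The RNA-binding and decay list had 12 of 103 (11.7%, 6.17 to 19.5), among them Zc3h15, whose window is printed above and whose other peaks lay 550 and 115 bp from the gene end (−log10 q 10.3 and 9.97). Ddx54, a helicase of ribosome biogenesis, had folds of 4.97 and 13.7. Edc3, an enhancer of decapping, had 1 of 2 peaks centred 795 bp beyond its RefSeq end.

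Genes of islet and pancreatic identity were few. Bhlha15 (Mist1), a factor of secretory acinar cells, had −log10 q of 16.1 and 14.1 at chr5:144191127-144194381. Krt18, a keratin, had folds of 2.9 and 2.27 with both peaks over a junction. Bhlha15 and Krt18 were 2 of 4 genes of the exocrine and ductal list, and Krt18 is not among the acinar or ductal markers used here. Over the whole marker lists, 2 of 9 acinar markers had a peak in the knockout list and 2 in the control list, and 4 of 7 ductal markers had one in the knockout list and 2 in the control list. The part of a different share of exocrine cells in the pools was not tested. Hk1, the low-Km hexokinase that mature beta cells are known to keep low, had folds of 8.43 and 22.1, and Acsl1, a fatty acyl-CoA synthetase also kept low there, 5.27 and 17.9. They were 2 of 9 genes of lipid and glucose metabolism. Of 11 endothelial and pericyte genes there were none (interval up to 28.5%, and up to 27.3% as 3 counts of the total), and of 3 Schwann cell genes none (interval up to 70.8%).

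Enzymes, transporters and trafficking genes lay around the background. Ubiquitin ligases and deubiquitinases had 19 of 101 (18.8%, 11.7 to 27.8). Usp24 had the best q, with −log10 q of 13.3 and 7.69, Fbxl18 had 2.87 and 11, and Rnf121 2.6 and 5.92. The list of protein kinases had 13 of 74 (17.6%, 9.7 to 28.2), in which Cdk2ap2 and Cdk5r1 are partners of kinases and not kinases. Tnk2 had −log10 q of 12.2 and 6.79, Camk2g 2.84 and 9.08, Mapk14 (p38α) 4.6 and 7.51, and Dyrk3 3.12 and 6.76. Solute carriers and transporters had 7 of 43 (16.3%, 6.81 to 30.7), among them Mfsd5 with folds of 3.24 and 13.7. Aqp11 and Slc39a9 each had 1 peak in the first 10% and 1 in the last 10% of the gene. Vesicle trafficking had 11 of 91 (12.1%, 6.19 to 20.6), with Snx19 (−log10 q 11 and 3.54), Ap1s2 (4.54 and 10.7), Ap4m1 (8.99 and 2.01) and Snx21 (8.71 and 2.24). GTPase regulators had 3 of 28, Fgd2 (folds 10.5 and 5.27), Cdc42se2 (2.32 and 2.03) and Sipa1l1 (3.45 and 5.06).

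**Figure D5:**
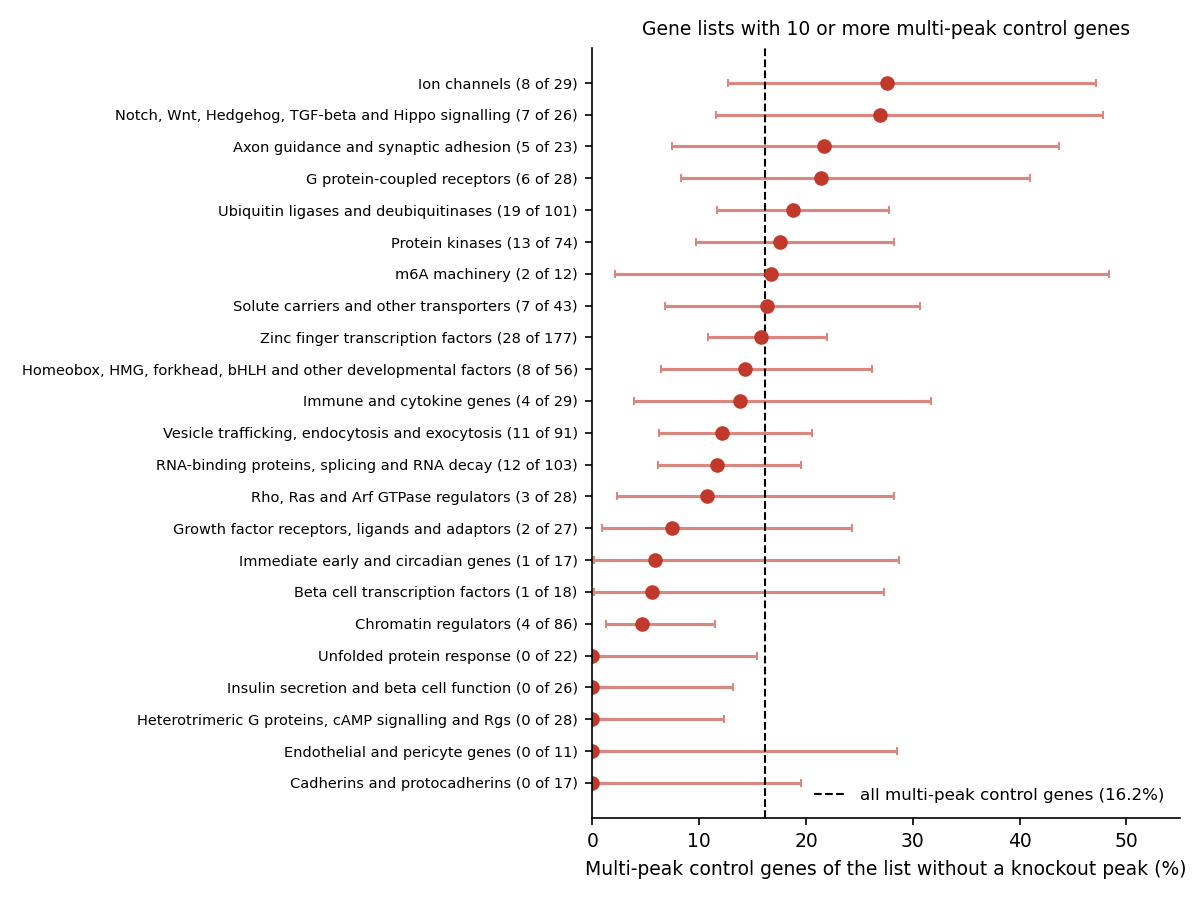
Percent of the multi-peak control genes of each list that had no knockout peak (x axis), with the counts beside each list name and exact 95% intervals that cover counting error over genes. The dashed line marks the 16.2% of all 2516 multi-peak control genes; chromatin regulators (4.65%) and 3 lists with none lie below it with their whole interval.

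The rule removes knockout peaks listed under the same identifier, so that knockout peaks listed under another gene were looked for. None overlapped the 922 peaks on the same strand or lay within 200 bp of them. Of all control peaks, 48.4% had no overlapping knockout peak on the same strand, a figure given for scale only, since the rule used the same comparison. The median distance to the nearest same-strand knockout peak was 157634 bp (quartiles 54407 and 394527), and 13 genes had one within 10000 bp. The closest was 238 bp, for the unnamed ENSMUSG00000105338, whose control peaks overlap those of Gbp7, a gene with peaks in both lists. On the opposite strand there was 1 overlap. The knockout peak of Leng8 (plus strand, fold 2.7, −log10 q 13.4) overlapped the Leng9 peak at chr7:4147915-4148185 (minus strand, fold 6.67, −log10 q 16.8). Whether the libraries kept the strand is not given in the sources used here, so reads of the 2 genes may not be told apart.

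Some identifiers share their peaks. In 13 of the 408 genes a control peak overlapped one listed for another identifier on the same strand. Ubox5 and Fastkd5 overlap each other, as do Lrch4 and Gm20605, and 2 identifiers named Ndor1 overlap with AL732309.1, and all 7 of these are among the 408. The others, Dgcr2, Psmd1, Zmym6, Zfp58, Zfp963 and ENSMUSG00000105338, overlap genes outside the 408.

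Just outside the rule on the side of peak number were genes with 1 control peak and no knockout peak. The strongest were Acot11, an acyl-CoA thioesterase (−log10 q 47, fold 2.26), Uggt1, the folding sensor of glycoproteins (37.7), Surf4, a cargo receptor for export from the endoplasmic reticulum (35), Rab33b (35) and Wls, the carrier of Wnt ligands (29.2). The q of 4 of these 5 was stronger than that of Bace2, the strongest of the 408 genes. On the side of the knockout list, the 5 genes with the weakest single knockout peak were Ighmbp2, Zfp937, Yy1, Ccdc71 and Lyst. Their knockout −log10 q was 1.63, 1.63, 1.71, 1.72 and 1.74. Lyst, the lysosomal trafficking regulator, had a knockout peak of fold 1.9, against 6 control peaks with a best fold of 27.4 and a best −log10 q of 20.6. Ighmbp2 and Zfp937 had the same knockout fold of 11.4 at the same q.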

How the data were processed

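The data were 2 lists of m6A peaks, deposited as the authors' own calls. Per the labels and the submitters' processing notes, tools included fastp 0.19.11, BWA 0.7.12 and HOMER 4.9.1 on GRCm38 (mm10), and the authors called peaks with exomePeak 2.16.0 at q 0.05, each IP against its own input. Each deposited peak has a p-value, a log10 p and a log10 q (held as unbounded score columns), and a fold enrichment, which is IP divided by input in the peak. How multiply mapped reads were handled and the annotation release are not given in the sources used here.

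Starts were read as 0-based, the BED convention, and are printed 1-based. Genes were joined by identifier, peaks by overlap of exon blocks of at least 1 bp on the same strand, and gene spans and promoter windows by symbol from RefSeq (GRCm38.p6, 375 of 408 genes). The members and the gene lists were chosen with earlier results of these data known. Named genes are those with 4 or more peaks, the 10 with the lowest q, the 10 with the highest fold at q of 0.001 or less, up to 4 per list, the 5 with the lowest q among junction peaks, the 5 with the longest summed peaks, overlaps with a knockout peak of another name, and those just outside the rule. Clone names, pseudogenes and mitochondrial genes were skipped in most parts. Genes outside this rule that complete a short count, or belong to the sequence windows, to shared peaks, to kinase partners or to genes listed by name alone, were named after their values were seen. A few genes picked by this rule are left out of the text. With 1 library per genotype no test was possible, and depth is unknown. Alternatives were stricter q, a minimum fold, merged rows, 3 or more peaks, equal numbers of peaks and other distance limits. Python 3.11.15, pandas 2.3.3 and scipy 1.17.1 were used, and the code was tested on simulated data.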

Additional observations from a re-analysis of the deposited data

How the results depend on the processing

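The count of 408 genes and the share of 16.2% stayed within 1.5 times and within the interval when overlapping rows were merged (393 genes, 15.9%), when rows within 200 bp were merged (333 genes, 15%), and when a knockout peak of any name on the same strand was counted. They also did so when those of the 408 genes that share a control peak with each other were counted once (404 genes, 16.1%). Sharing among multi-peak genes with a knockout peak was left as it was. The share moved with the peaks kept, and so did the count except at the minimum fold. At a q of 0.001 or less in both lists there were 262 genes (14.5%), of which 181 were among the 408, and with that q for control peaks alone there were 181 (10%). At a fold of at least 2 in both lists the share was 18.2%, while the count of 423 genes, with 390 of the 408, stayed within 1.5 times. At least 3 control peaks left 74 genes (6.88%). Equal numbers of peaks, taken by lowest q, gave 264 genes (12.6%). Leaving out control peaks on the repeated step, an alternative added after the data were seen, gave 259 genes (12.1%). The causes were not tested. The share of peaks near the gene end was 22.7% within 1000 bp and 49.2% in the last 10% of the gene, and near the gene start 6.82% within 1000 bp. Median fold was 8.07 over the strongest peak of each gene. Over the 27 gene lists the median share was 5.17% of control-peak genes and 13.8% of multi-peak genes, and of 54 alternative list shares 14 lay outside the interval of the main value, 10 of them with multi-peak genes as denominator. No paired analysis was possible because the knockout and the control were each 1 pool of RNA. Depth is unknown, so a missing knockout peak may be one not detectable at that depth.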

Other observations

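The chromosomes, taken after the values were seen, had shares of multi-peak control genes without a knockout peak between 7.53% on chromosome 13 and 21.6% on chromosomes 5, 6 and 7. The intervals of chromosomes 5 (15.9 to 28.3), 6 (14.5 to 30.1) and 7 (16.1 to 27.9) include the 16.2% of all multi-peak control genes. Those of chromosomes 13 (3.08 to 14.9) and 8 (5.42 to 15.8) lay below it. Of the domains that the lists describe for 6 or more of the 408 genes, the RING-type conserved site of ubiquitin ligases had 6 of 20 multi-peak control genes (30%, 11.9 to 54.3) and WD40/YVTN repeat-like proteins had 14 of 58 (24.1%, 13.9 to 37.2). At the other end stood nucleoside triphosphate hydrolases with a P-loop, with 14 of 137 (10.2%, 5.7 to 16.6). Of these 3 intervals each includes the 16.2% of all multi-peak control genes. Genes without a symbol in the list made up 30 of the 408 (7.35%, 5.02 to 10.3), against 3.61% (2.85 to 4.49) of multi-peak control genes with a knockout peak.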
